A study of Mus musculus with 12 samples.

Results

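Long noncoding RNAs are transcripts without a recognised protein product, and most of those annotated in the mouse are rare in whole tissue. The set described here holds the well-expressed ones in mouse lung: the rows typed lncRNA in the deposited expression table that reached 5 FPKM or more in at least 4 of the 12 libraries. FPKM counts fragments per kilobase of exon, scaled to the depth of the library, and is thus a level per gene length. The rule kept 99 of 6953 lncRNA rows, out of 35599 rows in all. The same threshold was passed by 8689 of 18912 protein-coding rows. The members were thus chosen by their level, and their levels are given as a description.

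Lung tissue came from 3 groups of 4 samples. ND-RHL lungs came from mice with an acute exacerbation of pulmonary fibrosis, induced by bleomycin plus lipopolysaccharide, that were then given liposomes loaded with nintedanib and dexamethasone and coated with hyaluronic acid and RGD peptides. AE-PF lungs came from mice with that challenge and no treatment, and saline lungs from control mice given saline. Bleomycin injures the lung epithelium and is followed by scarring, lipopolysaccharide is a bacterial trigger of inflammation, nintedanib inhibits tyrosine kinases and dexamethasone is a glucocorticoid. Strain, sex, age, doses and days are not given in the sources used here, and no group with empty liposomes or with either drug alone was analysed here. The labels do not say that the 4 samples of a group are separate animals, so p-values measure the spread between these samples, which may be technical.

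Long noncoding RNAs are known to act in several ways, some of them in this tissue. Some stay in the nucleus and scaffold bodies such as paraspeckles, some are spliced to release small nucleolar RNAs (snoRNAs) or microRNAs from their introns or exons, and some lie beside a transcription factor gene and share its promoter region. snoRNAs guide the chemical modification of ribosomal RNA, and genes that carry them often start with the pyrimidine tract typical of ribosomal protein genes. In the lung, Fendrr beside Foxf1 and transcripts beside Nkx2-1 are known from development.

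Among the members, 11 enclose a snoRNA gene and 6 enclose a microRNA gene on the same strand in the GENCODE M21 annotation of GRCm38. The libraries were made from polyadenylated RNA and measure the host transcript, not the small RNA. The mature microRNAs are printed to show what each host can release, from RefSeq with GRCm38.p6, with the seed, bases 2 to 8, in capitals. Each of the 12 has a seed of its own.
mmu-miR-22-5p in Mir22hg: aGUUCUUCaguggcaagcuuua
mmu-miR-22-3p in Mir22hg: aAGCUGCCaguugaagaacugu
mmu-miR-223-5p in F630028O10Rik: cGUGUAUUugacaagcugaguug
mmu-miR-223-3p in F630028O10Rik: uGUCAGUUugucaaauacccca
mmu-miR-142a-5p in Mir142hg: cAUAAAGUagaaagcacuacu
mmu-miR-142a-3p in Mir142hg: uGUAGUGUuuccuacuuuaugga
mmu-miR-101a-5p in E130102H24Rik: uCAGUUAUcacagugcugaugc
mmu-miR-101a-3p in E130102H24Rik: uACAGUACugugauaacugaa
mmu-miR-30c-5p in Gm27028: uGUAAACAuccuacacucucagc
mmu-miR-30c-2-3p in Gm27028: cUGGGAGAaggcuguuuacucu
mmu-miR-6516-5p in Snhg20: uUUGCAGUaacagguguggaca
mmu-miR-6516-3p in Snhg20: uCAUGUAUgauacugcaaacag

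The snoRNAs below lie inside members whose level differed between AE-PF and saline lungs. They were read from GRCm38 at the GENCODE M21 coordinates, 5′ to 3′ on the gene's own strand. Capitals mark the letters TGATGA near the 5′ end and CTGA near the 3′ end, which hold the C and D boxes that name this class.
Snord87 in Snhg6 (chr1:9942463-9942549, minus strand): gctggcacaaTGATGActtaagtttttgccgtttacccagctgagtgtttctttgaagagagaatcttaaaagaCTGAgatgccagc
Snord12 in Zfas1 (chr2:167065276-167065365, plus strand): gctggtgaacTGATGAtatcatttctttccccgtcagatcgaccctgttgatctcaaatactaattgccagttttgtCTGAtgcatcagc
Snord52 in 1110038B12Rik (chr17:34950952-34951017, minus strand): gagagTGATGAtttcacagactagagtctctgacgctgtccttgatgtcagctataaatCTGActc
Snord49a in 2410006H16Rik (chr11:62603450-62603521, plus strand): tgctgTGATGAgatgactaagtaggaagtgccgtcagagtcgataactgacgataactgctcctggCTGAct
Snord49b in 2410006H16Rik (chr11:62603079-62603150, plus strand): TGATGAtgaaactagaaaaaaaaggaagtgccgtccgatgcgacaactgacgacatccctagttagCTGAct
Snord65 in 2410006H16Rik (chr11:62604515-62604586, plus strand): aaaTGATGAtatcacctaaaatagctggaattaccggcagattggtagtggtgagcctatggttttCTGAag
Snord123 in Snhg18 (chr15:32241853-32241923, minus strand): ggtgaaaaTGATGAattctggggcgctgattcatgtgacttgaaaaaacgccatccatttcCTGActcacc
Snord47 in Gas5 (chr1:161038082-161038158, plus strand): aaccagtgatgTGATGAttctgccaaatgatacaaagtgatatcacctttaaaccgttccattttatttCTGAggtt

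The mean level over the 12 libraries ran from 3.69 FPKM to 154 FPKM, with a median of 6.44 FPKM. Malat1 was the single member at 100 FPKM or more, 14 members averaged 20 FPKM or more and 69 averaged under 10 FPKM. The 10 highest members, Malat1, Fendrr, Neat1, Norad, AU020206, Gm29237, AW112010, Oip5os1, Bvht and AU040972, held 44.5% of the summed FPKM of the set. In all 12 libraries 36 members stood at 5 FPKM or more, and the other 63 did so in 4 to 11 libraries. At that level in all 4 libraries of a group stood 58 members in ND-RHL, 47 in AE-PF and 61 in saline, while 17 members reached it in no AE-PF library. Just inside the threshold, by the fourth highest FPKM, were Gm16185 at 5.11, 5830428M24Rik at 5.11 and Gm14286 at 5.02. Just outside were Gm27042 at 4.97, Gm17491 at 4.94 and Gm19951 at 4.93.

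**Figure D1:**
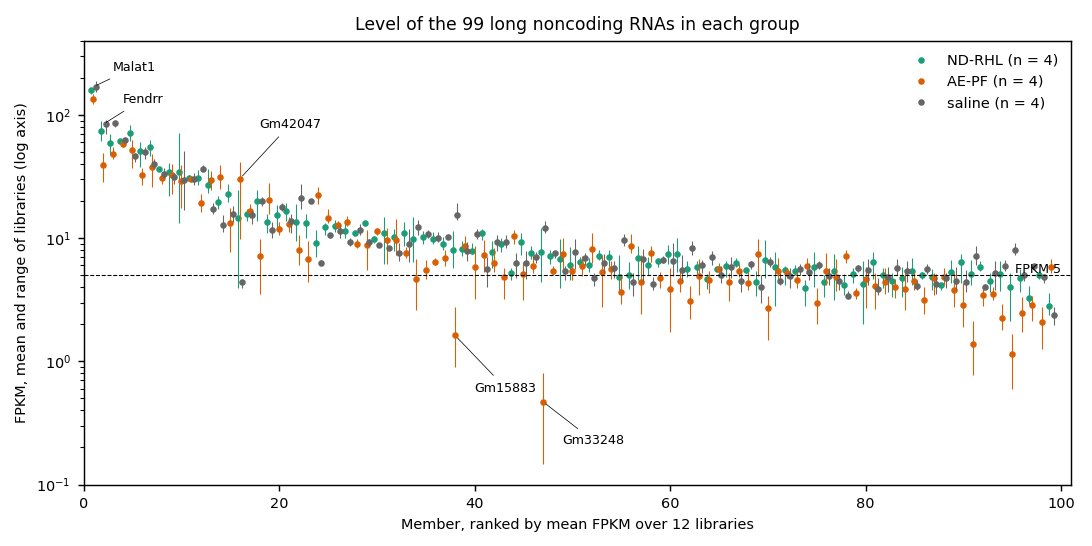
Level of each of the 99 members, ranked by the mean over 12 libraries (x axis), with FPKM on a log axis (y axis); points are group means, lines run from the lowest to the highest of 4 libraries, and the dashed line is the threshold of 5 FPKM. Most members lie within a narrow band under 10 FPKM, and Gm33248 and Gm15883 fall far below the line in AE-PF lungs.

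Libraries held 16152379 to 21667129 counted fragments, so that 3 fragments on a gene of 1 kb correspond to 0.138 to 0.186 FPKM. The members drew 71015 to 118415 fragments per library. They made up 0.426% to 0.496% of the summed FPKM in ND-RHL, 0.395% to 0.455% in AE-PF and 0.443% to 0.478% in saline libraries. The summed FPKM of the lung epithelial markers was 19386 to 39990.5 in ND-RHL, 6357 to 11023 in AE-PF and 40374 to 55967 in saline lungs, and none of those 9 markers was at 0 in any library. The summed cardiac muscle markers were 143 to 743 FPKM in ND-RHL, 31.0 to 54.4 FPKM in AE-PF and 341 to 603 FPKM in saline lungs. The summed adipocyte markers were 20.4 to 859 FPKM in ND-RHL, 2.29 to 26.9 FPKM in AE-PF and 123 to 647 FPKM in saline lungs. In other markers ND-RHL 4 and AE-PF 2 stood apart. Their summed squamous epithelial markers were 5882 and 1782 FPKM, against at most 14.7 FPKM elsewhere, and their skeletal muscle markers 1829 and 747 FPKM, against at most 141 FPKM elsewhere. Results are given with and without these libraries where that changed a call, and the part of these markers in the results was not tested.

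Each group pair was tested with limma on log2(FPKM + 1) over 15164 genes at 1 FPKM or more in at least 4 libraries, with Benjamini-Hochberg adjustment over all of them and a threshold of 0.05. A log2 change is therefore on the log2(FPKM + 1) scale and understates the change of low members. In AE-PF against saline lungs 15 members were higher, 40 were lower and 44 did not pass the test, which is 55.6% called, against 56.6% of all genes tested (26.4% higher, 30.2% lower). Among the 742 lncRNAs tested 44.1% were called (12.5% higher, 31.5% lower), and among the coding genes past the same level threshold 61.9% (30% higher, 31.9% lower). The share of members called is near the background. The median log2 change was -0.23 for the members, -0.15 for all lncRNAs tested and -0.03 for all genes. In ND-RHL against AE-PF lungs 43 members were higher, 11 lower and 45 not called. That is 54.5%, against 41.8% of all genes (24.3% higher, 17.4% lower), 39.5% of lncRNAs (31.4% higher, 8.09% lower) and 46.5% of the coding genes (25.1% higher, 21.4% lower). The median log2 change was 0.28 for the members, 0.19 for lncRNAs and 0.06 for all genes.

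A member that passed the level threshold only through groups where it is high is more likely to differ between groups by that choice alone. The counts are therefore split. The 17 members at 5 FPKM or more in no AE-PF library, with Gm33248, Gm15883, B430010I23Rik, Gm14964, Gm26973, Gm16185 and 5830428M24Rik among those described below, met the rule through the other groups. So did the 7 in no saline library, with Gm42047, Zfas1, Gm10134 and 1110038B12Rik among them. Their differences from those groups, with the p-values printed for them below, are a description only. Of the 36 members at 5 FPKM or more in all 12 libraries, 7 were higher and 12 lower in AE-PF than in saline lungs, and 17 were higher and 5 lower in ND-RHL lungs than in AE-PF lungs. Of the other 63, 8 were higher and 28 lower in AE-PF, and 26 higher and 6 lower in ND-RHL. Over all 3 comparisons 30 members were not called, and 27 were lower in AE-PF than in saline and higher in ND-RHL lungs than in AE-PF, with no call between ND-RHL and saline. The opposite course was taken by 7 members. These comparisons share libraries, and the share of all genes with the same joint calls was not computed. These counts are therefore a description. AE-PF and saline libraries did not overlap for 49 members, against 54.3% of all genes, and ND-RHL and AE-PF libraries for 39 members, against 36.8% of all genes.

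The balance of directions depended on the scaling. The AE-PF libraries had lower FPKM totals, and scaling all libraries to the same total moved the median log2 change of all genes in AE-PF against saline by 0.11. It gave 19 members higher and 34 lower there, and 29 higher and 15 lower in ND-RHL against AE-PF. Over all genes it put 63% of the calls of AE-PF against saline on the higher side, against 46.7% as deposited, and 37.8% of those of ND-RHL against AE-PF, against 58.2%. Quantile normalisation gave 40 members higher and 14 lower in ND-RHL against AE-PF, with 46.4% of all calls higher.

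**Figure D2:**
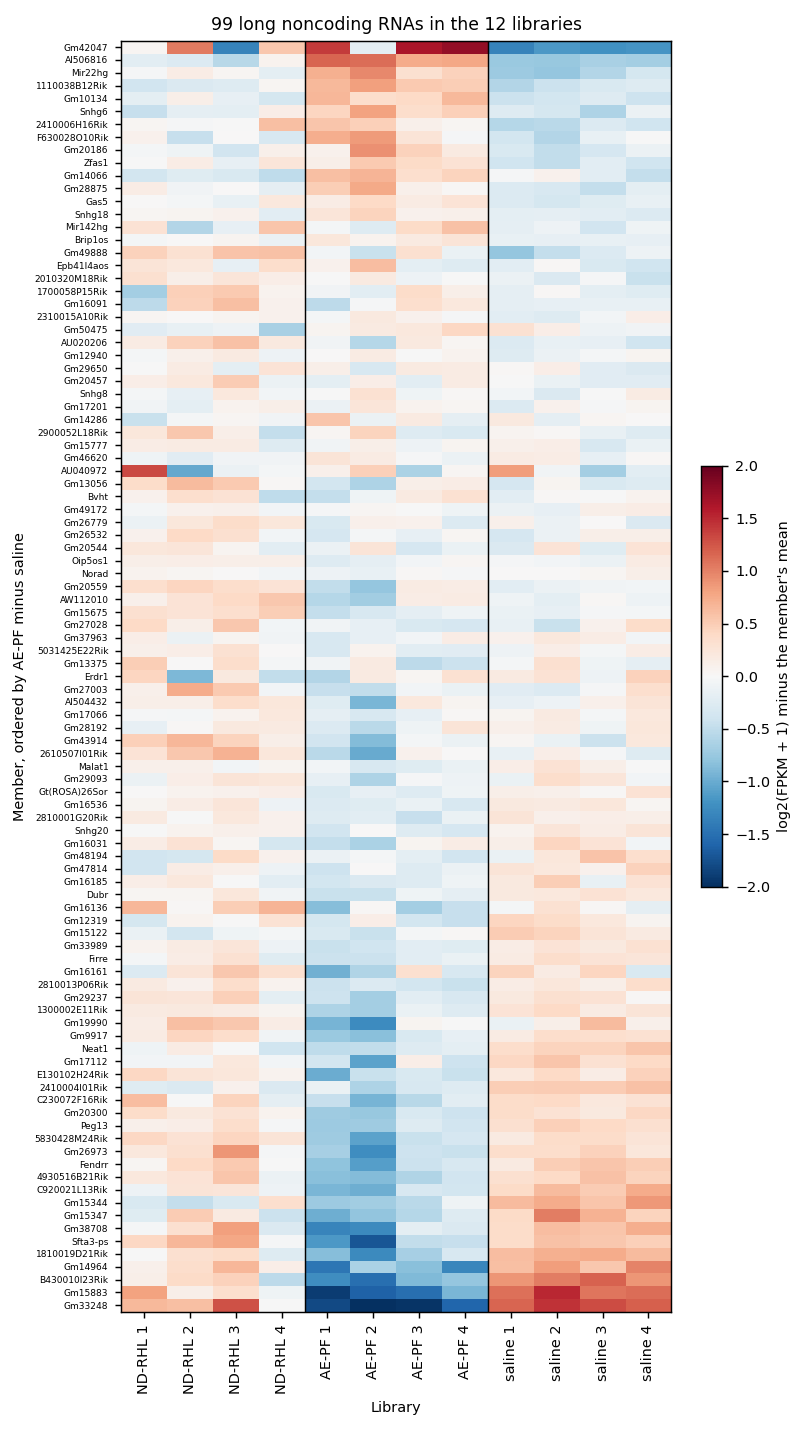
All 99 members (rows, ordered by the AE-PF minus saline difference) in the 12 libraries (columns), coloured by log2(FPKM + 1) minus the member's own mean; red is above and blue below that mean. The top rows are high in the 4 AE-PF libraries, the bottom rows are low there, and ND-RHL libraries lie nearer to saline in many rows of both ends.

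Among the nuclear RNAs, Malat1 and Neat1, which lie beside each other on chromosome 19, were both lower in AE-PF than in saline lungs. Malat1 (chr19:5795690-5802672, minus strand), an abundant RNA of nuclear speckles, had FPKM values of 164, 164, 147 and 159.6 in ND-RHL lungs, 148, 123, 129.990 and 139 in AE-PF lungs and 169, 187, 167 and 153 in saline lungs. All AE-PF libraries lay below all saline libraries, while ND-RHL overlapped both other groups. The log2 change was -0.32 ± 0.08 SE in AE-PF against saline (adjusted p = 0.00422), and the call was lost with equal FPKM totals (log2 change -0.19, adjusted p = 0.0679). Between ND-RHL and AE-PF it was 0.23 ± 0.08 SE (adjusted p = 0.0312), and the call was lost without ND-RHL 1, ND-RHL 2, ND-RHL 4, AE-PF 2 or AE-PF 3 (adjusted p = 0.0523 to 0.0784) and with AE-PF 2 and ND-RHL 4 both left out, the replicate block, equal FPKM totals or no low-value filter (adjusted p = 0.05005 to 0.264). With equal totals that log2 change was 0.12. In bulk tissue, fewer cells of a type and less RNA per cell cannot be told apart, here and below.

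Neat1 (chr19:5824708-5845478, minus strand), the scaffold RNA of paraspeckles, was measured at 58.7, 70.1, 61.8 and 46.8 FPKM in ND-RHL lungs, 43.6, 44.3, 51.8 and 54.4 FPKM in AE-PF lungs and 79.4, 85.1, 85.5 and 91.7 FPKM in saline lungs. These are values per gene from polyadenylated RNA, in which isoforms of Neat1 are not told apart. The saline libraries all lay above those of the other 2 groups. AE-PF was lower than saline (log2 change -0.81 ± 0.11 SE, adjusted p = 0.000134), and so was ND-RHL (log2 change -0.53 ± 0.11 SE, adjusted p = 0.00855). ND-RHL against AE-PF did not pass the test (log2 change 0.28 ± 0.11 SE, adjusted p = 0.0710), although a call was gained without ND-RHL 4 or AE-PF 4 (adjusted p = 0.00818 to 0.0478) and with AE-PF 2 and ND-RHL 4 both left out (adjusted p = 0.0180). Of 16 paraspeckle and nuclear speckle proteins tested, 3 were higher and 5 lower in AE-PF than in saline lungs, against 26.4% and 30.2% of all genes. In ND-RHL 2 were higher and 5 lower than in saline lungs, against 13.3% and 8.65% of all genes. Hnrnph3, a paraspeckle RNA-binding protein, averaged 14.3 ± 0.721 FPKM in ND-RHL, 9.09 ± 1.21 FPKM in AE-PF and 19.1 ± 1.04 FPKM in saline (SD, n = 4 each; AE-PF against saline adjusted p = 4.06e-06). Sfpq, a core paraspeckle protein, averaged 40.4 ± 3.22 FPKM in ND-RHL, 51.0 ± 1.69 FPKM in AE-PF and 53.7 ± 2.30 FPKM in saline, and was lower in ND-RHL than in either other group (adjusted p = 0.00130 and 0.00124).

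Norad, a cytoplasmic RNA that binds Pumilio proteins, had similar levels in the 3 groups. Its mean FPKM was 61.6 ± 2.23 in ND-RHL, 58.3 ± 3.02 in AE-PF and 62.8 ± 2.39 in saline (SD, n = 4 each), with no call in any comparison as deposited. In AE-PF against saline a call was gained with quantile normalisation (adjusted p = 0.00781). Firre, an X-linked RNA retained in the nucleus, averaged 15.5 ± 2.69 FPKM in ND-RHL, 11.9 ± 1.40 FPKM in AE-PF and 17.9 ± 0.992 FPKM in saline. It was lower in AE-PF than in saline lungs (log2 change -0.56 ± 0.11 SE, adjusted p = 0.00143) and higher in ND-RHL lungs than in AE-PF lungs (log2 change 0.34 ± 0.11 SE, adjusted p = 0.0291), where the call was lost without ND-RHL 2, ND-RHL 3, AE-PF 1 or AE-PF 2 (adjusted p = 0.0703 to 0.0825) and with the 2 groups fitted alone, equal FPKM totals or no low-value filter (adjusted p = 0.0600 to 0.133). The list of nuclear-body and nuclear-retained RNAs also held the cytoplasmic Norad. From this list 6 were tested, 3 of them lower in AE-PF than in saline and 2 higher in ND-RHL lungs than in AE-PF lungs. The median log2 change was -0.21 and 0.18, against -0.03 and 0.06 for all genes. Of all genes, 30.2% were lower in the first comparison and 24.3% higher in the second.

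Peg13 (chr15:72805600-72810324, minus strand), an imprinted RNA expressed from the paternal allele, had 29.8, 30.3, 35.6 and 27.1 FPKM in ND-RHL libraries, 16.2, 16.5, 22.8 and 21.013 FPKM in AE-PF libraries and 34.8, 39.0, 36.8 and 34.7 FPKM in saline libraries. All AE-PF values lay below all others. The fall was -0.90 ± 0.11 SE on the log2 scale against saline (adjusted p = 5.50e-05), and ND-RHL was 0.66 ± 0.11 SE above AE-PF (adjusted p = 0.000997). Of 5 imprinted or X-linked regulatory RNAs tested, 2 were lower in AE-PF than in saline, Peg13 and Ftx, an RNA of the X-inactivation centre. Of 7 coding partners of imprinted RNAs tested, 2 were higher and 3 lower in AE-PF than in saline lungs. Of all genes, 26.4% were higher and 30.2% lower there. Cdkn1c, a cell-cycle inhibitor, averaged 7.55 FPKM in ND-RHL, 7.23 FPKM in AE-PF and 12.9 FPKM in saline, and Igf2r, a receptor that clears insulin-like growth factor 2, 20.4 FPKM in ND-RHL, 25.6 FPKM in AE-PF and 15.7 FPKM in saline. Both differed between AE-PF and saline (adjusted p = 0.00103 and 0.000160).

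Of the 11 members that enclose a snoRNA gene, 7 were higher and 2 lower in AE-PF than in saline lungs, with a median log2 change of 0.50, against -0.03 for all genes. Of all genes, 26.4% were higher and 30.2% lower there. Of the 6 of these hosts at 5 FPKM or more in all 12 libraries, 4 were higher and none lower, and of the other 5, 3 were higher and 2 lower. In ND-RHL against AE-PF 2 of the 11 were higher and 4 lower (median -0.22, against 0.06 for all genes), where 24.3% of all genes were higher and 17.4% lower. In ND-RHL against saline 4 of the 11 were higher and none lower (median 0.21, against 0.03 for all genes), where 13.3% of all genes were higher and 8.65% lower. Hosts known from outside these data formed a wider list, of which 15 were tested and 7 are members: 8 were higher and 2 lower in AE-PF than in saline, 2 higher and 6 lower in ND-RHL lungs than in AE-PF, and 4 higher in ND-RHL than in saline. The summed FPKM of 6 proliferating-cell markers was 16.1 to 30.5 in ND-RHL, 28.2 to 44.6 in AE-PF and 6.76 to 8.08 in saline lungs, and that of 7 fibroblast and myofibroblast markers was 419 to 567 in ND-RHL, 1597 to 2763 in AE-PF and 336 to 393 in saline lungs. In AE-PF against saline all 6 proliferating-cell markers and 6 of the 7 fibroblast markers were higher. None of these markers was at 0 in any library. The part of these markers in the results on hosts was not tested.

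Snhg6 (chr1:9941959-9944118, minus strand), the host of Snord87, had FPKM values of 3.88, 4.92, 4.86 and 6.42 in ND-RHL lungs, 8.05, 10.8, 7.58 and 8.39 in AE-PF lungs and 4.63, 4.28, 3.38 and 5.23 in saline lungs. All AE-PF values lay above all others. It averaged 1.99 times the saline level in AE-PF (log2 change 0.85 ± 0.14 SE, adjusted p = 0.000479) and 0.577 times the AE-PF level in ND-RHL (log2 change -0.69 ± 0.14 SE, adjusted p = 0.00325). The exons of Snhg6 share 11.1% of their length with Mcmdc2 on the opposite strand, a meiotic gene listed at 0.0637 FPKM in ND-RHL, 0.0511 FPKM in AE-PF and 0.106 FPKM in saline.

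1110038B12Rik (chr17:34950238-34952471, minus strand), which encloses Snord52, had the largest rise of these hosts after AI506816. Its libraries gave 2.40, 2.63, 2.704 and 3.56 FPKM in ND-RHL, 5.97, 6.81, 5.35 and 5.25 FPKM in AE-PF and 1.96, 2.29, 2.602 and 2.73 FPKM in saline, and AE-PF overlapped neither other group. It met the level rule through its AE-PF libraries alone, so the log2 changes of 1.01 ± 0.11 SE in AE-PF against saline and -0.84 ± 0.11 SE in ND-RHL against AE-PF are a description. The nearest coding gene, the heat shock gene Hspa1b, starts 6767 bp away and took another course, averaging 6.27 ± 3.22 FPKM in ND-RHL, 4.45 ± 0.514 FPKM in AE-PF and 119.5 ± 2.12 FPKM in saline (SD, n = 4 each).

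2410006H16Rik (chr11:62602877-62604807, plus strand), which encloses Snord49a, Snord49b and Snord65, had 24.5, 23.5, 23.5 and 36.5 FPKM in ND-RHL, 35.2, 33.3, 25.7 and 24.5 FPKM in AE-PF and 15.7, 16.001, 19.4 and 17.9 FPKM in saline libraries. Every challenged library, treated or not, lay above every saline library. The log2 change was 0.74 ± 0.15 SE in AE-PF (adjusted p = 0.00184) and 0.60 ± 0.15 SE in ND-RHL against saline (adjusted p = 0.0196), where the call was lost without saline 1 or saline 2 (adjusted p = 0.0559 to 0.0567). Its highest ND-RHL value came from ND-RHL 4, the library with the squamous and muscle markers.

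Zfas1, the host of Snord12, which starts 81 bp from the antiviral helicase gene Znfx1, had 5.72, 6.48, 5.04 and 6.99 FPKM in ND-RHL, 6.37, 8.70, 7.80 and 7.30 FPKM in AE-PF and 4.15, 3.80, 4.85 and 4.12 FPKM in saline libraries. Both challenged groups lay above saline without overlap (log2 change 0.70 ± 0.10 SE, adjusted p = 0.000195 in AE-PF; log2 change 0.43 ± 0.10 SE, adjusted p = 0.0157 in ND-RHL). ND-RHL against AE-PF was not called (log2 change -0.28 ± 0.10 SE, adjusted p = 0.0535), although a call was gained without ND-RHL 4 or AE-PF 1 (adjusted p = 0.0268 to 0.0295) and with limma-voom, array weights, quantile normalisation or equal FPKM totals (adjusted p = 0.0131 to 0.0455). Znfx1 itself was lower in AE-PF than in saline lungs, at 15.3 FPKM in ND-RHL, 12.1 FPKM in AE-PF and 18.4 FPKM in saline (AE-PF against saline adjusted p = 0.000485).

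Gas5, which is known in human cells as an RNA that binds the glucocorticoid receptor, was also higher in AE-PF than in saline lungs. It carries 10 annotated snoRNA entries, among them overlapping entries of the same snoRNA, Snord80. The FPKM values of Gas5 were 11.4, 10.9, 10.0 and 13.3 in ND-RHL lungs, 12.6, 15.2, 12.7 and 13.8 in AE-PF lungs and 9.11, 8.64, 9.42 and 10.0 in saline lungs. AE-PF lay above saline without overlap (log2 change 0.50 ± 0.08 SE, adjusted p = 0.000444). ND-RHL was lower than AE-PF (log2 change -0.24 ± 0.08 SE, adjusted p = 0.0414), but the call was lost without ND-RHL 1, ND-RHL 2, ND-RHL 3, AE-PF 2, AE-PF 4, saline 1 or saline 3 (adjusted p = 0.0548 to 0.117) and with the 2 groups fitted alone or no low-value filter (adjusted p = 0.0785 to 0.0828). ND-RHL was higher than saline (log2 change 0.26 ± 0.08 SE, adjusted p = 0.0449), where the call was lost without ND-RHL 1, ND-RHL 2, ND-RHL 4, AE-PF 1, AE-PF 3, AE-PF 4, saline 1, saline 2 or saline 3 (adjusted p = 0.0514 to 0.121) and with AE-PF 2 and ND-RHL 4 both left out, quantile normalisation or no low-value filter (adjusted p = 0.0505 to 0.0888).

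Snhg18, the host of Snord123, starts 148 bp from Sema5a, an axon guidance gene, on the opposite strand. Snhg18 averaged 12.4 ± 1.20 FPKM in ND-RHL, 14.7 ± 1.85 FPKM in AE-PF and 10.6 ± 0.335 FPKM in saline and was higher in AE-PF than in saline lungs (log2 change 0.43 ± 0.09 SE, adjusted p = 0.00126). Against AE-PF, ND-RHL was not called (log2 change -0.22 ± 0.09 SE, adjusted p = 0.0551), although a call was gained without AE-PF 3 or AE-PF 4 (adjusted p = 0.0362 to 0.0432) and with the replicate block, equal FPKM totals or a filter at FPKM 5 (adjusted p = 0.0115 to 0.0484). Against saline a call was gained without ND-RHL 4 or AE-PF 2 (adjusted p = 0.0364 to 0.0433) and with AE-PF 2 and ND-RHL 4 both left out or array weights (adjusted p = 0.00481 to 0.00997). Sema5a averaged 2.42 ± 0.125 FPKM in ND-RHL, 4.58 ± 0.747 FPKM in AE-PF and 2.39 ± 0.0907 FPKM in saline, higher in AE-PF than in saline (log2 change 0.71 ± 0.09 SE, adjusted p = 4.50e-05) and lower in ND-RHL lungs than in AE-PF (log2 change -0.70 ± 0.09 SE, adjusted p = 0.000150).

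Snhg20, which encloses the snoRNA gene Gm26083 and Mir6516, took the opposite course. It averaged 5.55 ± 0.230 FPKM in ND-RHL, 4.34 ± 0.670 FPKM in AE-PF and 6.11 ± 0.441 FPKM in saline and was lower in AE-PF than in saline lungs (log2 change -0.42 ± 0.08 SE, adjusted p = 0.00121). It was higher in ND-RHL lungs than in AE-PF lungs (log2 change 0.30 ± 0.08 SE, adjusted p = 0.0132), where the call was lost with quantile normalisation or equal FPKM totals (adjusted p = 0.0699 to 0.0716). Snhg8 averaged 8.12 FPKM in ND-RHL, 8.57 FPKM in AE-PF and 7.92 FPKM in saline and Epb41l4aos 10.3 FPKM in ND-RHL, 9.72 FPKM in AE-PF and 7.59 FPKM in saline. Neither was called in any comparison as deposited, while for Epb41l4aos in ND-RHL against saline a call was gained without AE-PF 2 (adjusted p = 0.0494).

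**Figure D3:**
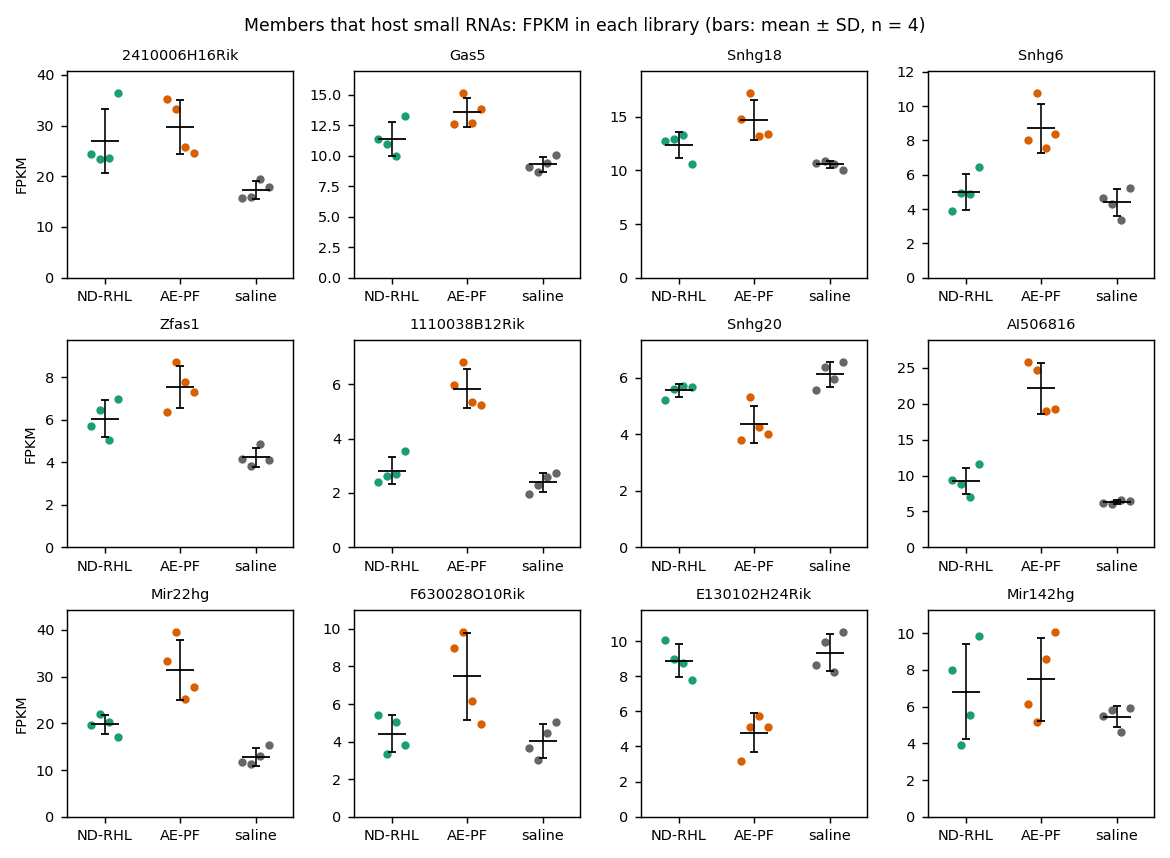
FPKM (y axis, from 0) of 12 members that enclose a snoRNA or microRNA gene, with 1 point per library and bars for the mean ± SD of 4 libraries in ND-RHL, AE-PF and saline lungs. Snhg6, 1110038B12Rik, AI506816 and Mir22hg are highest in all 4 AE-PF libraries, and E130102H24Rik is lowest there.

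The genes that work with these hosts were measured beside them. Of 32 ribosomal protein and related TOP genes, 28 were higher and none lower in AE-PF than in saline lungs, and 20 were higher and none lower in ND-RHL than in saline. In ND-RHL against AE-PF 1 was higher and 6 were lower, against 24.3% and 17.4% of all genes. Of all genes, 26.4% were higher and 30.2% lower in AE-PF than in saline, and 13.3% higher in ND-RHL than in saline. The 6 proliferating-cell markers were likewise all higher in AE-PF and in ND-RHL than in saline. Unlike most of the 32 genes, all 6 were lower in ND-RHL lungs than in AE-PF. Rpl3, a protein of the large ribosomal subunit, averaged 164 ± 14.6 FPKM in ND-RHL, 187 ± 10.3 FPKM in AE-PF and 121 ± 7.16 FPKM in saline, and Pabpc1, the poly(A)-binding protein, 62.4 ± 7.91 FPKM in ND-RHL, 72.0 ± 1.88 FPKM in AE-PF and 45.4 ± 2.84 FPKM in saline. Both were higher in AE-PF than in saline (adjusted p = 4.31e-05 and 4.58e-05). Of 16 snoRNP and snoRNA processing proteins, 5 were higher and 4 lower in AE-PF than in saline, a share near the 56.6% called of all genes. The nucleolar proteins Ncl and Npm1 averaged 31.6 FPKM in ND-RHL, 39.3 FPKM in AE-PF and 25.5 FPKM in saline and 73.4 FPKM in ND-RHL, 89.0 FPKM in AE-PF and 57.8 FPKM in saline. Both were higher in AE-PF than in saline (adjusted p = 9.30e-05 and 0.000105). Ruvbl2, an assembly factor of snoRNPs, averaged 13.6 FPKM in ND-RHL, 11.2 FPKM in AE-PF and 16.6 FPKM in saline (adjusted p = 0.000188). Spliced host transcripts are known targets of nonsense-mediated decay. Of 14 decay factors tested, 1 was higher and 5 lower in AE-PF than in saline, against 26.4% and 30.2% of all genes. The lower ones included Rbm8a at 20.9 FPKM in ND-RHL, 19.2 FPKM in AE-PF and 24.3 FPKM in saline (adjusted p = 0.000180) and Casc3 at 17.0 FPKM in ND-RHL, 15.1 FPKM in AE-PF and 19.8 FPKM in saline (adjusted p = 0.000348).

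Of the 6 members that enclose a microRNA gene, 2 were higher and 2 lower in AE-PF than in saline lungs, against 56.6% called of all genes. In ND-RHL lungs 3 were higher and 2 lower than in AE-PF lungs, against 41.8%. Mir22hg (chr11:75461539-75466676, plus strand), the host of the miR-22 pair printed above, had FPKM values of 19.6, 22.1, 20.3 and 17.1 in ND-RHL lungs, 33.2, 39.6, 25.2 and 27.7 in AE-PF lungs and 11.6, 11.2, 12.9 and 15.4 in saline lungs. The 3 groups did not overlap, with ND-RHL between AE-PF and saline. The log2 changes were 1.22 ± 0.14 SE in AE-PF against saline (adjusted p = 3.04e-05), -0.63 ± 0.14 SE in ND-RHL against AE-PF (adjusted p = 0.00440) and 0.60 ± 0.14 SE in ND-RHL against saline (adjusted p = 0.0123). Tlcd2, a membrane-lipid gene whose exons overlap 10.7% of the exon length of Mir22hg on the same strand, averaged 2.21 FPKM in ND-RHL, 2.42 FPKM in AE-PF and 1.68 FPKM in saline.

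F630028O10Rik (chrX:96239926-96243636, plus strand) encloses Mir223, whose product miR-223 is known from myeloid cells. Its libraries gave 5.43, 3.36, 5.07 and 3.82 FPKM in ND-RHL, 9.00, 9.84, 6.19 and 4.91 FPKM in AE-PF and 3.67, 3.00, 4.44 and 5.03 FPKM in saline. AE-PF 1 and AE-PF 2 were the highest, and AE-PF 4 lay within the range of the other groups. AE-PF was higher than saline (log2 change 0.73 ± 0.21 SE, adjusted p = 0.0103). ND-RHL was lower than AE-PF (log2 change -0.62 ± 0.21 SE, adjusted p = 0.0308), but the call was lost without ND-RHL 2, ND-RHL 4, AE-PF 1 or AE-PF 2 (adjusted p = 0.0668 to 0.0895) and with AE-PF 2 and ND-RHL 4 both left out, array weights, the replicate block, the 2 groups fitted alone or no low-value filter (adjusted p = 0.0555 to 0.167). With array weights the log2 change was -0.35. The summed FPKM of 8 monocyte and macrophage markers was 4075 to 5997 in ND-RHL, 4953 to 6241 in AE-PF and 3635 to 4582 in saline lungs. Of the 8, 6 were higher in AE-PF than in saline and none was at 0. The part of these markers in the result was not tested.

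Mir142hg, the host of the miR-142 pair of blood cells, overlapped between all groups, at 6.82 ± 2.61 FPKM in ND-RHL, 7.47 ± 2.25 FPKM in AE-PF and 5.46 ± 0.593 FPKM in saline, with no call as deposited. For AE-PF against saline a call was gained with array weights (adjusted p = 0.00911). E130102H24Rik, the host of Mir101a, was named after its values were seen. It averaged 8.89 ± 0.937 FPKM in ND-RHL, 4.79 ± 1.10 FPKM in AE-PF and 9.34 ± 1.06 FPKM in saline, and its AE-PF libraries lay below all others (log2 change -0.85 ± 0.14 SE, adjusted p = 0.000321 against saline; log2 change 0.79 ± 0.14 SE, adjusted p = 0.00116 in ND-RHL against AE-PF). Gm27028, the host of Mir30c-2 and likewise named after its values were seen, averaged 11.0 ± 2.18 FPKM in ND-RHL, 7.62 ± 0.747 FPKM in AE-PF and 8.93 ± 2.32 FPKM in saline.

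Fendrr (chr8:121054882-121083110, minus strand) starts 1276 bp from Foxf1, a forkhead transcription factor gene of lung mesenchyme and endothelium, and runs away from it. Fendrr was the second most abundant member. It had 63.5, 82.0, 89.1 and 61.4 FPKM in ND-RHL libraries, 34.8, 28.4, 45.4 and 49.1 FPKM in AE-PF libraries and 70.1, 87.0, 91.0 and 87.4 FPKM in saline libraries. The AE-PF libraries lay below all others, and ND-RHL and saline overlapped. AE-PF averaged 0.470 times the saline level (log2 change -1.09 ± 0.18 SE, adjusted p = 0.000322), and ND-RHL 1.88 times the AE-PF level (log2 change 0.91 ± 0.18 SE, adjusted p = 0.00219). Foxf1 ran with it, at 54.2, 74.1, 88.8 and 81.2 FPKM in ND-RHL, 33.2, 29.5, 46.4 and 53.9 FPKM in AE-PF and 84.7, 96.9, 98.0 and 108 FPKM in saline libraries (AE-PF against saline log2 change -1.27 ± 0.19 SE, adjusted p = 0.000231). The summed FPKM of 6 lung endothelial markers was 764 to 1062 in ND-RHL, 359 to 608 in AE-PF and 949 to 1103 in saline lungs. All 6 were lower in AE-PF than in saline and higher in ND-RHL lungs than in AE-PF, and none was at 0. Their part in the result was not tested.

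The promoter window of Fendrr is printed because forkhead factors are coded beside it. It covers 250 bases before to 50 after the start in RefSeq (GRCm38.p6, chr8:121083061-121083360, minus strand), and capitals mark the forkhead core TGTTTAC read on the other strand, at position 122 from the window's 5′ end.
Fendrr promoter: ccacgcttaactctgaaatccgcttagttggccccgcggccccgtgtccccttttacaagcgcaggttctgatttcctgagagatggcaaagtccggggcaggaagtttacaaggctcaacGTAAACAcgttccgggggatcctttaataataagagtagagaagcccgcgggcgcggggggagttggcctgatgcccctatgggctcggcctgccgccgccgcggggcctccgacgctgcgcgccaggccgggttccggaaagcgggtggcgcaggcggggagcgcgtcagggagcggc
The window has 64.7% GC and 31 CpG, against a median of 52.7% and 7 over 32851 windows. The forkhead letters TGTTTAC, searched on both strands, stood in 3.65% of all windows and, of the 42 members with a window under their symbol, in 3, Fendrr, E130102H24Rik and 2900052L18Rik. The palindromic glucocorticoid response element, searched with its spaced half-sites, stood in 0.475% of all windows and in none of the 42 members, and the AP-1 letters TGANTCA in 7.81% and in none. A match is a description of these letters and not evidence of binding.

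Sfta3-ps (chr12:56488321-56529427, minus strand) and Gm26973 (chr12:56535343-56607476, plus strand) start 7481 bp and 1565 bp from the start of Nkx2-1, the transcription factor gene of lung epithelium, and Gm26973 runs across that start on the opposite strand. Sfta3-ps had 18.8, 22.7, 24.6 and 13.7 FPKM in ND-RHL, 5.75, 3.53, 9.56 and 9.87 FPKM in AE-PF and 18.3, 21.4, 20.8 and 19.7 FPKM in saline libraries. Gm26973 had 5.76, 6.28, 9.73 and 4.76 FPKM in ND-RHL, 2.67, 1.48, 3.37 and 3.28 FPKM in AE-PF and 6.45, 6.48, 7.05 and 5.84 FPKM in saline libraries. For both, AE-PF lay below the other groups without overlap, and ND-RHL overlapped saline. The log2 change in AE-PF against saline was -1.45 ± 0.26 SE for Sfta3-ps (adjusted p = 0.000656) and -1.04 ± 0.20 SE for Gm26973 (adjusted p = 0.00115). For ND-RHL over AE-PF it was 1.41 ± 0.26 SE (adjusted p = 0.00159) and 1.04 ± 0.20 SE (adjusted p = 0.00228). Nkx2-1 averaged 54.7 ± 11.7 FPKM in ND-RHL, 25.1 ± 8.67 FPKM in AE-PF and 66.6 ± 6.41 FPKM in saline (SD, n = 4 each; AE-PF against saline log2 change -1.44 ± 0.23 SE, adjusted p = 0.000337). Of the 9 lung epithelial markers, 8 were lower in AE-PF than in saline and 8 higher in ND-RHL lungs than in AE-PF, with the sums given above. Their part in these results was not tested.

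**Figure D4:**
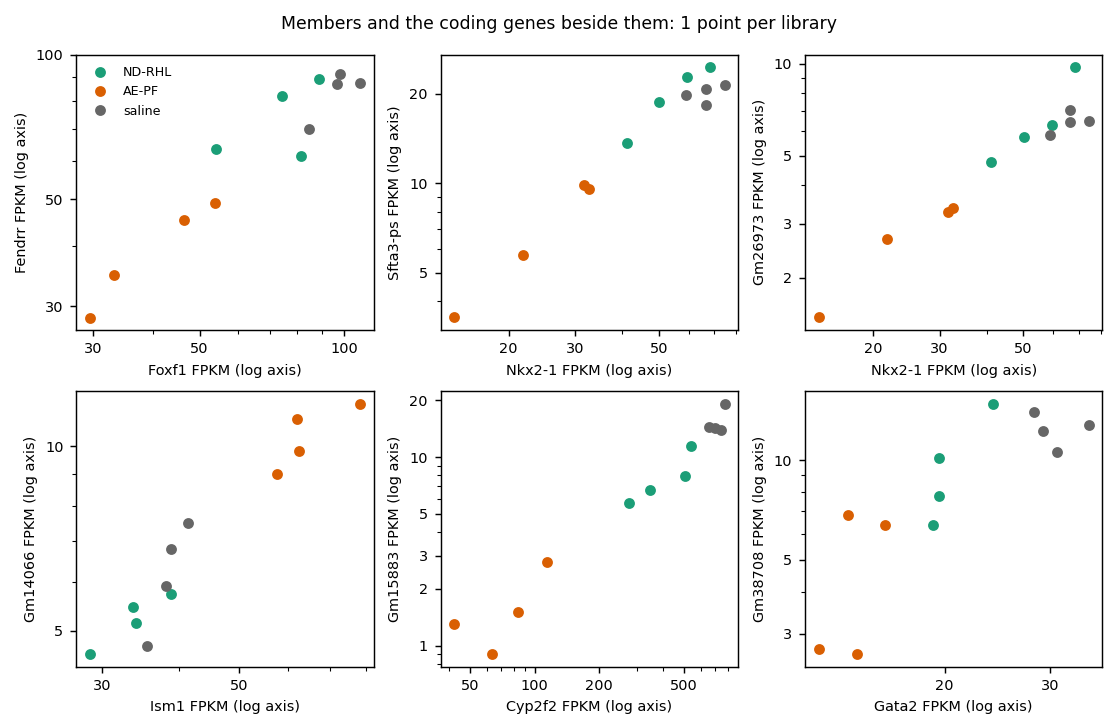
FPKM of 6 members (y axes, log) against the coding gene beside or overlapping each (x axes, log), with 1 point per library in ND-RHL, AE-PF and saline lungs. The AE-PF libraries lie at the low end of the member's axis for Fendrr, Sfta3-ps, Gm26973 and Gm15883 and at its high end for Gm14066; for Gm38708 they lie below saline and overlap ND-RHL.

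Gm15883 (chr7:27124481-27130674, minus strand) lies on the strand opposite to Cyp2f2, a cytochrome P450 gene of club cells, and shares 16.2% of its exon length with that gene's exons. Its FPKM values were 11.4, 6.70, 7.96 and 5.71 in ND-RHL lungs, 0.904, 1.31, 1.503 and 2.78 in AE-PF lungs and 14.2, 19.2, 13.9 and 14.4 in saline lungs. The 3 groups did not overlap, with ND-RHL between AE-PF and saline. AE-PF averaged 0.105 times the saline level (log2 change -2.68 ± 0.22 SE, adjusted p = 4.72e-06) and ND-RHL 4.89 times the AE-PF level (log2 change 1.78 ± 0.22 SE, adjusted p = 0.000169). ND-RHL was lower than saline (log2 change -0.91 ± 0.22 SE, adjusted p = 0.0157), and the call was lost without saline 2 (adjusted p = 0.0502). Cyp2f2 averaged 417 ± 124 FPKM in ND-RHL, 75.9 ± 31.0 FPKM in AE-PF and 718 ± 51.2 FPKM in saline (SD, n = 4 each). The library kit does not mark strand as far as the labels say, and the counting setting is not given, so reads of Gm15883 and Cyp2f2 in the overlap cannot be told apart.

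Gm38708 (chr6:88188397-88190681, minus strand) starts 3210 bp from Gata2, a transcription factor gene of blood and endothelial cells. It had 7.79, 10.2, 14.8 and 6.37 FPKM in ND-RHL, 2.603, 2.698, 6.81 and 6.37 FPKM in AE-PF and 10.6, 12.8, 12.2 and 13.9 FPKM in saline libraries. AE-PF lay below saline without overlap (log2 change -1.34 ± 0.29 SE, adjusted p = 0.00226). ND-RHL overlapped AE-PF and was called higher (log2 change 0.97 ± 0.29 SE, adjusted p = 0.0198), but the call was lost without ND-RHL 3, AE-PF 1 or AE-PF 2 (adjusted p = 0.0538 to 0.0614) and with the 2 groups fitted alone (adjusted p = 0.0564). Gata2 averaged 20.6 ± 2.33 FPKM in ND-RHL, 14.1 ± 1.48 FPKM in AE-PF and 30.7 ± 2.89 FPKM in saline, lower in AE-PF than in saline (adjusted p = 6.17e-06).

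Gm14066 (chr2:139256876-139677714, minus strand) starts 464 bp from Ism1, which codes for the secreted protein isthmin, and runs away from it. Gm14066 had 5.15, 5.75, 5.46 and 4.58 FPKM in ND-RHL, 11.1, 11.7, 9.02 and 9.83 FPKM in AE-PF and 6.80, 7.503, 5.91 and 4.73 FPKM in saline libraries. All AE-PF values lay above all others (log2 change 0.67 ± 0.12 SE, adjusted p = 0.000686 against saline; log2 change -0.87 ± 0.12 SE, adjusted p = 0.000312 in ND-RHL against AE-PF). Ism1 averaged 33.8 ± 4.11 FPKM in ND-RHL, 65.1 ± 9.10 FPKM in AE-PF and 38.4 ± 2.41 FPKM in saline, with the same calls (adjusted p = 0.000133 and 9.68e-05).

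The pairs with values above were chosen after their values were seen, so the likeness over all members with a tested coding gene is given by distance. For 24 members whose exons overlap those of a coding gene, Pearson's r between the member's and the gene's log2 change was 0.64 in AE-PF against saline and 0.67 in ND-RHL against AE-PF. For 31 members without overlap whose nearest coding start lies within 10 kb, r was 0.13 and 0.56, and Spearman's rho 0.33 and 0.42. Among them is 1110038B12Rik with Hspa1b, whose log2 changes were 1.01 and -4.47 in AE-PF against saline. For 30 members farther away it was -0.00 and -0.08. Among 18 members that start head to head with a tested coding gene within 2 kb, some of which also overlap another coding gene, r was 0.54 and 0.52. Of these 18, 10 members were called in AE-PF against saline, a share near the 56.6% called of all genes. For 4 of the 10 the coding gene was called in the same direction and for 6 it was not called. These 4 pairs were Fendrr, Gm20186, Snhg18 and Gm14066 with the genes named beside them. These are descriptions across genes of the same 12 libraries, overlapping pairs can share reads, and the 2 comparisons share the AE-PF libraries.

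The largest difference of all members was that of Gm33248 (chr7:129667405-129693400, plus strand), a transcript 75542 bp from the nearest coding start, Wdr11. It had 7.46, 7.19, 12.0 and 4.40 FPKM in ND-RHL, 0.543, 0.146, 0.390 and 0.802 FPKM in AE-PF and 11.1, 13.7, 12.3 and 11.4 FPKM in saline libraries. It met the level rule without its AE-PF libraries, so its differences from AE-PF are a description. AE-PF was lower than saline in all libraries (log2 change -3.17 ± 0.22 SE, adjusted p = 1.97e-06; with limma-voom on the recovered fragments, -4.78). ND-RHL was higher than AE-PF in all libraries (log2 change 2.53 ± 0.22 SE, adjusted p = 2.91e-05; with limma-voom, 4.07, and with a pseudocount of 0.1, 3.85). ND-RHL against saline was not called (log2 change -0.65 ± 0.22 SE, adjusted p = 0.0588), although a call was gained without ND-RHL 3 or AE-PF 2 (adjusted p = 0.00947 to 0.0493) and with array weights or quantile normalisation (adjusted p = 0.0490 to 0.0491).

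B430010I23Rik, which shares 18.7% of its exon length with Mtus1 on the opposite strand, had 3.90, 4.88, 5.203 and 2.14 FPKM in ND-RHL, 0.916, 0.592, 1.45 and 1.66 FPKM in AE-PF and 7.30, 8.23, 9.19 and 7.33 FPKM in saline libraries. The 3 groups did not overlap (log2 change -2.09 ± 0.21 SE, adjusted p = 1.63e-05 in AE-PF against saline). ND-RHL was higher than AE-PF (log2 change 1.21 ± 0.21 SE, adjusted p = 0.00133; with limma-voom, 1.84) and lower than saline (log2 change -0.88 ± 0.21 SE, adjusted p = 0.0148). Mtus1, a microtubule-associated tumour suppressor gene, averaged 22.3 FPKM in ND-RHL, 18.026 FPKM in AE-PF and 26.2 FPKM in saline.

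Gm14964, which lies opposite Nrxn2 with 27.2% of its exon length shared, averaged 5.07 ± 1.13 FPKM in ND-RHL, 1.39 ± 0.633 FPKM in AE-PF and 7.13 ± 1.20 FPKM in saline. AE-PF lay below both other groups (log2 change -1.80 ± 0.19 SE, adjusted p = 1.97e-05 against saline; log2 change 1.37 ± 0.19 SE, adjusted p = 0.000324 in ND-RHL against AE-PF). 1810019D21Rik, opposite the epithelial splicing regulator Esrp2, averaged 13.3 ± 2.78 FPKM in ND-RHL, 6.82 ± 2.11 FPKM in AE-PF and 19.9 ± 0.864 FPKM in saline, and its groups did not overlap (log2 change -1.46 ± 0.18 SE, adjusted p = 6.34e-05 in AE-PF against saline; log2 change 0.89 ± 0.18 SE, adjusted p = 0.00317 in ND-RHL against AE-PF). In ND-RHL against saline the test gave log2 change -0.57 ± 0.18 SE, adjusted p = 0.0458, but the call was lost without ND-RHL 1, ND-RHL 2, ND-RHL 4, AE-PF 1, AE-PF 3, saline 1, saline 2, saline 3 or saline 4 (adjusted p = 0.0540 to 0.112) and with the replicate block, equal FPKM totals, no low-value filter, a pseudocount of 0.5 or a pseudocount of 0.1 (adjusted p = 0.0506 to 0.0988). Esrp2 averaged 8.11 FPKM in ND-RHL, 5.55 FPKM in AE-PF and 11.1 FPKM in saline, lower in AE-PF than in saline (adjusted p = 5.02e-05).

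Gm29237 and Gm15347 also lie opposite coding genes, with 29.9% of their exon length shared with Sptbn1, a spectrin gene, and 44.7% with Atp11a, a lipid flippase gene. Gm29237 averaged 50.5 ± 9.38 FPKM in ND-RHL, 32.8 ± 4.48 FPKM in AE-PF and 50.2 ± 4.74 FPKM in saline, with AE-PF below both other groups (log2 change -0.61 ± 0.14 SE, adjusted p = 0.00311 against saline; log2 change 0.60 ± 0.14 SE, adjusted p = 0.00566 in ND-RHL against AE-PF). Sptbn1 averaged 113 FPKM in ND-RHL, 81.4 FPKM in AE-PF and 126 FPKM in saline. Gm15347 averaged 13.5 ± 4.24 FPKM in ND-RHL, 8.05 ± 1.96 FPKM in AE-PF and 21.1 ± 4.67 FPKM in saline and was lower in AE-PF than in saline (log2 change -1.29 ± 0.22 SE, adjusted p = 0.000491). It was higher in ND-RHL lungs than in AE-PF (log2 change 0.66 ± 0.22 SE, adjusted p = 0.0328), but the call was lost without ND-RHL 2, ND-RHL 3, AE-PF 1 or AE-PF 2 (adjusted p = 0.0735 to 0.0955) and with limma-voom, array weights, the 2 groups fitted alone, equal FPKM totals or no low-value filter (adjusted p = 0.0511 to 0.0726). In ND-RHL against saline a call was gained without ND-RHL 2 (adjusted p = 0.0296) and with quantile normalisation (adjusted p = 0.0493). Atp11a averaged 55.4 FPKM in ND-RHL, 35.6 FPKM in AE-PF and 54.9 FPKM in saline.

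Dubr, known as a regulator of muscle differentiation in mouse cells, averaged 8.99 ± 0.885 FPKM in ND-RHL, 6.87 ± 1.05 FPKM in AE-PF and 10.2 ± 0.333 FPKM in saline, lower in AE-PF than in saline (log2 change -0.52 ± 0.09 SE, adjusted p = 0.000602) and higher in ND-RHL lungs than in AE-PF (log2 change 0.35 ± 0.09 SE, adjusted p = 0.0108), where the call was lost with equal FPKM totals (adjusted p = 0.0595). 5830428M24Rik, near the level threshold, averaged 5.06 FPKM in ND-RHL, 2.10 FPKM in AE-PF and 4.82 FPKM in saline, and its AE-PF libraries lay below all others (log2 change 0.99 ± 0.14 SE, adjusted p = 0.000287 in ND-RHL against AE-PF). Gm16185 averaged 4.50 FPKM in ND-RHL, 3.51 FPKM in AE-PF and 5.25 FPKM in saline and was lower in AE-PF than in saline (log2 change -0.45 ± 0.13 SE, adjusted p = 0.0121), where the call was lost with equal FPKM totals (adjusted p = 0.0550). Gm16185 was not called in ND-RHL against AE-PF (adjusted p = 0.109), although a call was gained without ND-RHL 4 (adjusted p = 0.0498). Gm14286 averaged 4.39 FPKM in ND-RHL, 5.45 FPKM in AE-PF and 4.94 FPKM in saline with no call.

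Gm42047 (chr8:121833247-121841178, plus strand), 3678 bp from Klhdc4, was the member with the largest rise in AE-PF against saline lungs. It had 11.9, 24.7, 3.97 and 17.3 FPKM in ND-RHL, 32.2, 9.90, 38.0 and 41.4 FPKM in AE-PF and 3.94, 4.65, 4.39 and 4.53 FPKM in saline libraries. All AE-PF values lay above all saline values (log2 change 2.37 ± 0.50 SE, adjusted p = 0.00197), AE-PF 2 was the lowest of its group, and ND-RHL 3 lay at the saline level. ND-RHL against AE-PF was not called (log2 change -1.08 ± 0.50 SE, adjusted p = 0.106), although a call was gained without ND-RHL 2 or AE-PF 2 (adjusted p = 0.0179 to 0.0493) and with AE-PF 2 and ND-RHL 4 both left out or array weights (adjusted p = 0.00906 to 0.0160). ND-RHL against saline was not called either (log2 change 1.29 ± 0.50 SE, adjusted p = 0.0877), although a call was gained without ND-RHL 3 or AE-PF 2 (adjusted p = 0.0159 to 0.0357) and with array weights (adjusted p = 0.0327).

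AI506816 (chr5:23698296-23712667, minus strand) was higher in AE-PF than in saline lungs as well. Its libraries gave 9.34, 8.87, 7.07 and 11.6 FPKM in ND-RHL, 25.8, 24.7, 18.9 and 19.3 FPKM in AE-PF and 6.15, 6.01, 6.59 and 6.43 FPKM in saline, and the 3 groups did not overlap. AE-PF averaged 3.53 times the saline level (log2 change 1.66 ± 0.13 SE, adjusted p = 3.86e-06), and ND-RHL 0.415 times the AE-PF level (log2 change -1.19 ± 0.13 SE, adjusted p = 8.55e-05). ND-RHL was higher than saline (log2 change 0.47 ± 0.13 SE, adjusted p = 0.0271), but the call was lost without ND-RHL 1, ND-RHL 2, ND-RHL 4, saline 1, saline 2 or saline 4 (adjusted p = 0.0531 to 0.0708) and with no low-value filter (adjusted p = 0.0598). The annotation places Mir3096, typed as a snoRNA, inside it.

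**Figure D5:**
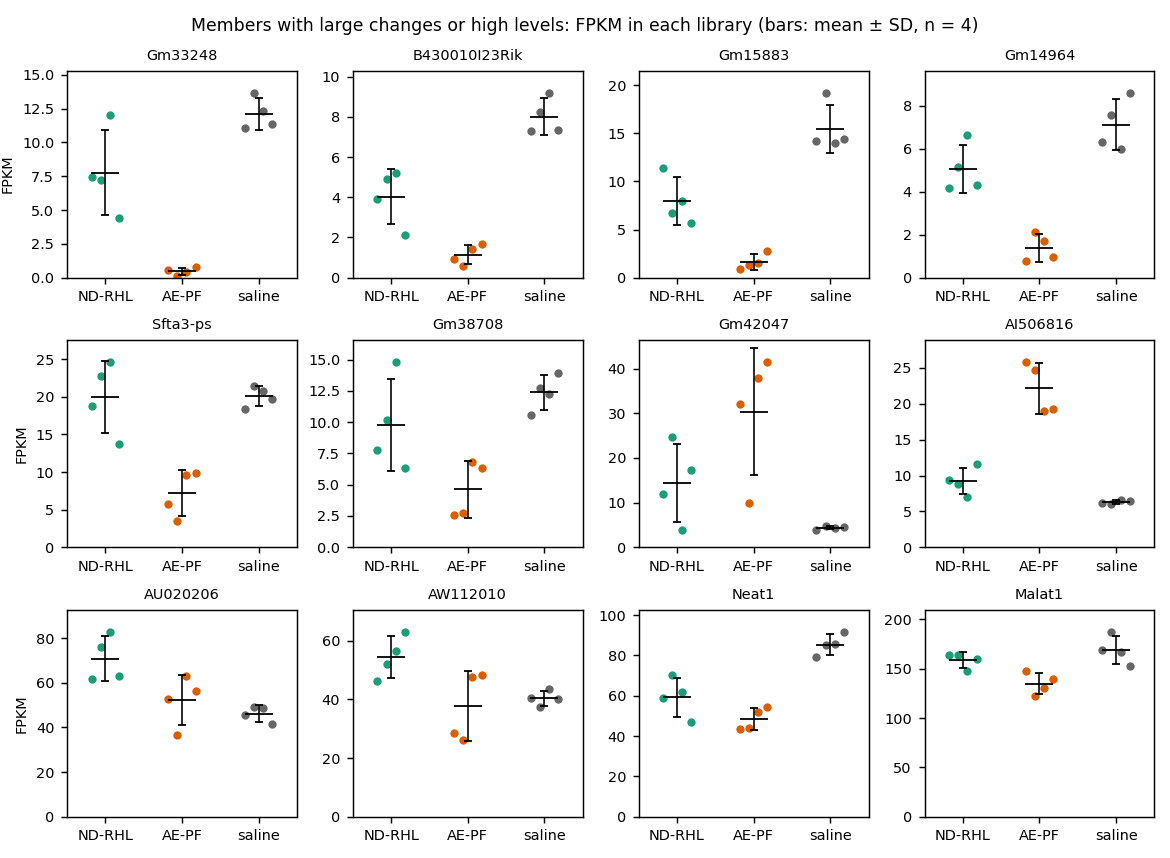
FPKM (y axis, from 0) of 12 members with large changes or high levels, with 1 point per library and bars for the mean ± SD of 4 libraries in ND-RHL, AE-PF and saline lungs. Gm33248, B430010I23Rik, Gm15883, Gm14964 and Sfta3-ps are lowest in all 4 AE-PF libraries, AI506816 is highest there, and AU020206 and AW112010 are highest on average in ND-RHL lungs.

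Gm20186, which starts 372 bp from Lsm8, a splicing-factor gene, and runs away from it, averaged 13.6 ± 1.98 FPKM in ND-RHL, 20.2 ± 5.77 FPKM in AE-PF and 11.6 ± 1.39 FPKM in saline and was higher in AE-PF than in saline (log2 change 0.72 ± 0.17 SE, adjusted p = 0.00350). It was lower in ND-RHL lungs than in AE-PF (log2 change -0.51 ± 0.17 SE, adjusted p = 0.0300), but the call was lost without ND-RHL 2, ND-RHL 3, AE-PF 2 or AE-PF 3 (adjusted p = 0.0541 to 0.0867) and with the replicate block, the 2 groups fitted alone or no low-value filter (adjusted p = 0.0543 to 0.0658). Gm10134 averaged 4.15 ± 0.701 FPKM in ND-RHL, 7.14 ± 0.909 FPKM in AE-PF and 3.41 ± 0.239 FPKM in saline, and its AE-PF libraries lay above all others (log2 change 0.88 ± 0.10 SE, adjusted p = 3.72e-05 against saline; log2 change -0.66 ± 0.10 SE, adjusted p = 0.000589 in ND-RHL against AE-PF). The table types Gm10134 as lncRNA, while GENCODE M21 types it as protein-coding.

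AU020206 and AW112010 were highest in treated lungs. AU020206 (chr7:75769038-75782099, minus strand) had 61.7, 76.0, 82.8 and 62.9 FPKM in ND-RHL, 52.5, 36.8, 62.9 and 56.4 FPKM in AE-PF and 45.4, 49.2, 48.7 and 41.4 FPKM in saline libraries. ND-RHL lay above saline without overlap (log2 change 0.60 ± 0.15 SE, adjusted p = 0.0175). It was called higher than AE-PF (log2 change 0.45 ± 0.15 SE, adjusted p = 0.0327), but the call was lost without ND-RHL 2, ND-RHL 3, AE-PF 1 or AE-PF 2 (adjusted p = 0.0589 to 0.0927) and with the 2 groups fitted alone, equal FPKM totals or no low-value filter (adjusted p = 0.0689 to 0.106). Without AE-PF 2 that log2 change was 0.30. AE-PF against saline was not called (adjusted p = 0.425), although a call was gained without AE-PF 2 (adjusted p = 0.0396) and with AE-PF 2 and ND-RHL 4 both left out or array weights (adjusted p = 0.0159 to 0.0335).

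AW112010 (chr19:11047612-11055808, minus strand), an RNA induced in mouse immune cells from which a small protein is also made, had 46.2, 52.1, 56.6 and 63.0 FPKM in ND-RHL, 28.6, 26.2, 47.6 and 48.4 FPKM in AE-PF and 40.5, 37.2, 43.6 and 40.0 FPKM in saline libraries. AE-PF fell into 2 low libraries, AE-PF 1 and AE-PF 2, and 2 that overlapped ND-RHL. ND-RHL was called higher than AE-PF (log2 change 0.56 ± 0.19 SE, adjusted p = 0.0310), but the call was lost without ND-RHL 2, ND-RHL 3, ND-RHL 4, AE-PF 1 or AE-PF 2 (adjusted p = 0.0502 to 0.0929) and with AE-PF 2 and ND-RHL 4 both left out, array weights, the 2 groups fitted alone, equal FPKM totals or no low-value filter (adjusted p = 0.0666 to 0.215). The log2 change was 0.23 with array weights and 0.34 without both libraries. ND-RHL lay above saline without overlap and was not called (log2 change 0.42 ± 0.19 SE, adjusted p = 0.131), although a call was gained with the 2 groups fitted alone (adjusted p = 0.0156). The summed FPKM of 7 T and NK cell markers was 40.3 to 49.9 in ND-RHL, 6.44 to 25.2 in AE-PF and 13.2 to 14.5 in saline lungs. Of the 7, 6 were higher in ND-RHL than in saline and 4 higher than in AE-PF, and none was at 0. Their part in the result was not tested.

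Among the other abundant members, Oip5os1, known as Cyrano and as a regulator of miR-7, averaged 36.4 ± 0.270 FPKM in ND-RHL, 30.8 ± 2.83 FPKM in AE-PF and 33.1 ± 2.95 FPKM in saline. It was higher in ND-RHL lungs than in AE-PF lungs (log2 change 0.24 ± 0.07 SE, adjusted p = 0.0202), where the call was lost without AE-PF 1 (adjusted p = 0.0632) and with AE-PF 2 and ND-RHL 4 both left out, array weights or equal FPKM totals (adjusted p = 0.0669 to 0.216). With equal totals the log2 change was 0.13. Bvht, known from heart development in the mouse, averaged 34.1 ± 8.48 FPKM in ND-RHL, 32.3 ± 7.51 FPKM in AE-PF and 31.4 ± 2.68 FPKM in saline with no call. AU040972 averaged 34.2 ± 25.3 FPKM in ND-RHL, 29.0 ± 8.90 FPKM in AE-PF and 29.6 ± 14.7 FPKM in saline with no call, and its ND-RHL libraries ran widely apart, at 70.9, 13.2, 25.7 and 27.1 FPKM.

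ND-RHL and saline lungs differed in fewer members. There, 10 members were higher, 8 lower and 81 not called, which is 18.2%, against 21.9% of all genes tested (13.3% higher, 8.65% lower), 15.1% of lncRNAs (8.76% higher, 6.33% lower) and 24.8% of the coding genes past the same threshold (14.3% higher, 10.5% lower). The share of members called is near the background. The median log2 change was 0.03 for the members and 0.03 for all genes. Libraries of these 2 groups did not overlap for 23 members, against 29.9% of all genes. No called difference reached 1 on the log2 scale. Of the members with values given above, the higher side held the snoRNA hosts Gas5, Zfas1, 2410006H16Rik and AI506816, besides Mir22hg and AU020206. The lower side held Neat1, Gm15883, 1810019D21Rik and B430010I23Rik. Each side also held members not described above. Among these were Gm49888 on the higher side (log2 change 0.89, adjusted p = 0.00444) and Gm15344 on the lower (log2 change -0.88, adjusted p = 0.00662), both named after their values were seen. The counts moved with single libraries: 17 members were higher without AE-PF 2 and 6 without saline 1, and 5 were lower without saline 2. Quantile normalisation gave 9 higher and 10 lower, with 43.5% of the calls over all genes higher, against 60.5% as deposited.

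By annotation, 98 of the 99 members had their identifier in GENCODE M21. The median exon length was 1166.5 bp, and 17 members have a single exon block. The exons of 26 members overlap a coding exon, 22 of them on the opposite strand, and for 3 the overlap covers 50% or more of the exon length. A further feature is a start shared with a coding gene: 19 members start head to head with a coding gene within 2 kb. Besides Gm10134, Erdr1 is typed protein-coding in that annotation.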

How the data were processed

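RNA from mouse lung was enriched for polyadenylated transcripts and sequenced on a DNBSEQ-G400, per the labels' protocols. The deposited table gives 1 FPKM value per gene and library, made by the authors. Tools named in the submitters' processing notes are STAR 2.7.9a, Subread 2.0.1 with featureCounts, Trim Galore 0.6.6, DESeq2 1.30.1 and FastQC, with the builds GRCm38 and mm10. The strand setting is not given. FPKM times the exon length of GENCODE M21 gave whole fragments within 1e-05 for 34139 of 35599 genes (95.9%) and 95 members, from which each library's depth was read. For the other 1460 genes, Zfas1, Gm10134, Erdr1 and Gm50475 among them, a length that gives whole fragments in all libraries was searched for. Coordinates come from GENCODE M21 by identifier, since only 731 of 34725 matched genes start where the table places them.

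Genes at 1 FPKM or more in at least 4 libraries were tested with limma 3.58.1 (R 4.3.3) on log2(FPKM + 1) with a trended variance over all 12 libraries, which leaves 9 residual degrees of freedom. Every ± is an SD of 4 libraries or an SE of the limma fit, and no interval by fragments is printed. Such an interval would cover counting error only, since PCR copies are not separate molecules. The limma step was tested on simulated data with known changes. Alternatives were 2 pseudocounts, 2 filters, 2 scalings, the 2 groups alone, a replicate block, each library left out, AE-PF 2 and ND-RHL 4 left out together, array weights and limma-voom on the recovered fragments.

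Members and gene lists were chosen with earlier results of these data known. Named members are the 10 highest, up to 8 with the largest called changes in each direction of the 2 comparisons with AE-PF, the members of 5 lists of known lncRNAs, and the 3 on either side of the threshold. Coding genes are named by overlap with a named member, from the pathway lists by up to 2 of the smallest p-values per direction, and as nearest neighbours. Replicate numbers were checked for pairing: the deviations of libraries with the same number correlated at 0.397, 0.188, 0.114 and 0.173 in ND-RHL against saline. The labels do not pair libraries across groups, and no correlations of libraries with different numbers are given beside these. A pairing is thus not established, and the main tests are unpaired. A fit with the replicate number as a block over all 12 libraries ended 1 named call in ND-RHL against saline, of 1810019D21Rik.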

Additional observations from a re-analysis of the deposited data

Results flagged for a closer look

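Among 126 groups of 4 libraries examined for the 42 named members, 3 held a library whose distance to the nearest other exceeded Dixon's 95% limit, and chance flags about 1 group in 20. 2410006H16Rik, the host of Snord49a, Snord49b and Snord65, stood at 36.5 FPKM in ND-RHL 4, against 23.5 to 24.5 FPKM in the other ND-RHL libraries. That library also carried the squamous and skeletal muscle markers. Gm15883, opposite Cyp2f2, stood at 19.2 FPKM in saline 2, against 13.9 to 14.4 FPKM in the other saline libraries. Dubr stood at 10.7 FPKM in saline 3, against 9.99 to 10.1 FPKM in the others.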

How the results depend on the processing

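In AE-PF against saline 15 members were higher and 40 lower, and leaving out single libraries gave 15 to 17 higher and 37 to 43 lower. In ND-RHL against AE-PF 43 were higher and 11 lower, and leaving out single libraries gave 31 to 45 higher and 9 to 12 lower. Every alternative kept these 4 counts within 1.5 times. In ND-RHL against saline 10 were higher and 8 lower. Array weights gave 18 higher, and leaving out single libraries gave 6 to 17 higher and 5 to 10 lower. The cause was not tested. No named member changed direction past the threshold under any alternative. Of the named members' values under alternatives, 2743 kept their side of the threshold in the same direction, 116 lost a call and 39 gained one. Removal of a single library ended none of 32 named calls in AE-PF against saline, 10 of 29 in ND-RHL against AE-PF and 5 of 10 in ND-RHL against saline.

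The replicate block gave 15 higher and 41 lower in AE-PF against saline, 42 and 10 in ND-RHL against AE-PF, and 9 and 6 in ND-RHL against saline. In the first pair the same-number correlations were 0.0649, -0.181, 0.0651 and -0.107, and in the second 0.0593, -0.361, 0.339 and -0.387. The numbers were not taken to pair the libraries in any comparison. Depth limits the lowest values: the smallest member count in a library was 2 fragments, in Gm33248 in AE-PF 2, where a fold change depends on the pseudocount.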

Other observations

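Several host RNAs outside the set of members also differed between the groups. Snhg1 averaged 3.52 ± 0.336 FPKM in ND-RHL, 5.14 ± 0.742 FPKM in AE-PF and 2.84 ± 0.275 FPKM in saline (SD, n = 4 each) and Snhg15 2.29 ± 0.387 FPKM in ND-RHL, 3.22 ± 0.0921 FPKM in AE-PF and 1.40 ± 0.0718 FPKM in saline. Both were higher in AE-PF than in saline and lower in ND-RHL lungs than in AE-PF (limma, adjusted p = 0.000110 and 0.00340 for Snhg1, 1.21e-05 and 0.00403 for Snhg15). Snhg11 averaged 4.57 ± 1.72 FPKM in ND-RHL, 1.17 ± 0.364 FPKM in AE-PF and 6.03 ± 0.263 FPKM in saline and was lower in AE-PF than in saline (adjusted p = 1.98e-05). Among microRNA hosts, Dnm3os, which carries miR-199a and miR-214, averaged 1.48 ± 0.338 FPKM in ND-RHL, 8.21 ± 4.27 FPKM in AE-PF and 2.18 ± 0.450 FPKM in saline, and Mir155hg, the host of miR-155, 0.571 ± 0.340 FPKM in ND-RHL, 1.68 ± 0.545 FPKM in AE-PF and 0.200 ± 0.0851 FPKM in saline. Both were higher in AE-PF than in saline (adjusted p = 0.000634 and 0.000230) and lower in ND-RHL lungs than in AE-PF (adjusted p = 0.000374 and 0.00486).

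H19, an imprinted growth-related RNA of fetal tissue, was high in the libraries with squamous and skeletal muscle markers. It had 0.491, 0.176, 0.231 and 97.4 FPKM in ND-RHL, 1.96, 11.4, 1.92 and 1.24 FPKM in AE-PF and 0.882, 0.307, 5.24 and 0.423 FPKM in saline libraries, and no comparison was called (adjusted p = 0.585 in AE-PF against saline). Gm19951, just below the level threshold, had 3.68, 4.29, 4.93 and 7.88 FPKM in ND-RHL, 6.24, 6.79, 3.43 and 3.04 FPKM in AE-PF and 1.84, 2.19, 2.17 and 2.72 FPKM in saline libraries, with every challenged library above every saline library. These RNAs were chosen after their values were seen.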
